A study of Arabidopsis thaliana with 2 samples.

Results

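The genes described here belong to the making of very-long-chain fatty acids and of the lipids derived from them. Most of them serve the wax that covers the leaf, and KCS2 and FAR1 are known for suberin, which need not be their only role. They were named by locus: CER1 (AT1G02205), CER2 (AT4G24510), CER3 (AT5G57800), CER6 (AT1G68530), KCS1 (AT1G01120), KCS2 (AT1G04220) and FAR1 (AT5G22500), each to be found in the authors' table of genes higher in WRKY75 RNAi leaves. Of these 7 loci, 6 were in that table and 1, KCS1, was in neither gene table, so its reads are not known here. The tables hold 2159 loci in all, 1231 of them listed as higher. Since the loci were picked from the higher table, their read numbers and ratios are a description and no test of them was made.

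Polyadenylated RNA was sequenced from the third and the fourth leaf of *Arabidopsis thaliana* plants aged 28 days, with 1 library per genotype. One library came from the wild type and the other from WRKY75 RNAi plants, both of the Col-0 accession. RNA interference (RNAi) silences a gene through double-stranded RNA, here against the transcription factor gene WRKY75, while no source used here gives the promoter of the transgene, the number of lines or any pooling of plants. The title of the series names salicylic acid, reactive oxygen and leaf senescence, and does not name wax. The library totals behind the deposited values were 41328980 reads for wild type and 38042482 for WRKY75 RNAi. WRKY75 (AT5G13080) itself had 1699 reads in the first and 476 in the second, or 30.4% of its wild-type RPKM. RPKM is the number of reads scaled to gene length and library size. No difference could be checked against replicates, and the intervals given are exact (Clopper-Pearson for ratios and shares, Poisson for levels) 95% intervals that cover counting error only.

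In epidermal cells, fatty acids are lengthened on the endoplasmic reticulum by an elongase complex, in which a 3-ketoacyl-CoA synthase (KCS) condenses the acyl chain with a carbon donor and a ketoreductase, a dehydratase and an enoyl reductase complete each cycle. The finished chains enter the alkane branch or the alcohol branch of wax synthesis and are carried across the plasma membrane to the cuticle, where they limit water loss. Some members of the same families make the fatty acids and alcohols of suberin, the lipid barrier of roots, seed coats and wounds.

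All 6 loci found were higher in WRKY75 RNAi, by 2.43-fold to 24.5-fold. Among all 31475 transcript models that the authors tested, 4.32% were listed as higher, but the rule used this contrast and nothing is read from the count. At a log2 ratio of at least 1.5 there were 4 members and 2.3% of the tested models, and at a log2 ratio of at least 2 there were 3 members and 1.44%. CER6, CER3 and CER2 each had 1640 wild-type reads or more and ratios of 2.43-fold to 3.20-fold. FAR1 and KCS2 had few wild-type reads and ratios of 10.6-fold and 24.5-fold. CER1 was 15.8-fold higher in the listed model with most reads, AT1G02205.2, but its log2 ratio of 3.98 became 2.85 with both listed models summed, and its other models are not in the tables. With 1 model per locus, they took together 250.5 RPM (reads scaled to library size) in wild type and 700.2 RPM in the RNAi library, 2.80 times as many. CER6 held 55.5% of these in wild type and 48.1% in WRKY75 RNAi, or 69.4% and 62.8% with the listed models of each locus summed. The median log2 ratio of the 6 was 2.54, beside 1.49 over the 1150 higher loci with reads in both libraries. By the models used, this median lies in a gap: CER6, CER2 and CER3 had 1.28 to 1.68, and FAR1, CER1 and KCS2, with fewer wild-type reads, had 3.41 to 4.62.

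The elongase genes come first in the pathway. CER6, the main condensing enzyme of leaf and stem wax, also named KCS6, had 5741 reads in the wild-type library and 12824 in the RNAi library. Its deposited RPKM was 62.6 and 151.9, respectively (log2 ratio 1.28, interval 1.23 to 1.32). It had the highest RPKM of the 6 in both libraries, by the models used here, and had the smallest ratio, ranking 34 by RPKM in WRKY75 RNAi among the 1231 higher loci and 785 of 1150 by ratio. CER2 encodes a protein of the acyltransferase family that works with CER6 in making the longest chains. It had 1640 and 4097 reads, or 20.8 RPKM and 56.5 RPKM (log2 ratio 1.44, interval 1.36 to 1.52). KCS2, a condensing enzyme known for suberin in roots, had only 12 wild-type reads and 271 in the RNAi library. This is 0.103 RPKM against 2.52 RPKM, a log2 ratio of 4.62 with an interval of 3.79 to 5.59, which placed KCS2 at rank 10 by ratio. Thus the 2 condensing enzyme genes found had the smallest and the largest ratio of the 6.

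The next genes belong to the alkane branch. CER3 and CER1 encode partner proteins that together convert very-long-chain acyl chains to alkanes, the main class of leaf wax. CER3 had 2853 wild-type reads and 8392 in the RNAi library, and its RPKM was 18.0 and 57.4 (log2 ratio 1.68, interval 1.61 to 1.74). Its ratio lay above those of CER2 and CER6, and its interval did not overlap theirs. Few reads were listed for CER1. The listed model with the most reads, AT1G02205.2, had 4 wild-type reads and 58 in the RNAi library (0.0264 and 0.415 RPKM; log2 ratio 3.98, interval 2.54 to 5.90). The other listed model, AT1G02205.1, had 10 and 35 reads (log2 ratio 1.93, interval 0.88 to 3.11). It had more wild-type reads than AT1G02205.2, which was thus chosen through its RNAi reads, and this choice favours the larger ratio. The RefSeq annotation of TAIR10.1 holds 5 models of CER1, of which 2 were listed, so the level of the whole locus is not known here. With both listed models summed, CER1 had 14 and 93 reads and a log2 ratio of 2.85.

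The alcohol branch was represented by FAR1, a fatty acyl-CoA reductase that makes the primary fatty alcohols found with suberin. FAR1 had 102 wild-type reads and 995 in the RNAi library, or 0.671 and 7.11 RPKM (log2 ratio 3.41, interval 3.11 to 3.71). It ranked 61 by ratio among the 1150 higher loci and had far more wild-type reads behind it than KCS2 or CER1, so its ratio was the best counted of the large ones. The RefSeq annotation of TAIR10.1 holds 2 models of FAR1, of which 1 was listed, so the level of its whole locus is not known here.

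Levels of different genes can be compared only per length, and the deposited lengths of genes with several introns mostly follow the genomic span, introns included. They do not do so for every gene: the deposited length of CER6, 2219 bases, was below its RefSeq spliced length of 2252. The gene ends behind the deposited lengths thus differ in part from those of RefSeq. For 800 listed models with at least 5 exons the deposited length was a median of 1.43 times the spliced length. Recomputed as RPKM with the spliced length, the order was the same in both libraries: CER6, CER3, CER2, FAR1, KCS2. CER1 has no place in it, since the level of its whole locus is not known, and is given for AT1G02205.2 alone. The level of the whole FAR1 locus is not known either, as 1 of its 2 annotated models was listed, and FAR1 is placed by that model. CER6 is placed by AT1G68530.1, 1 of its 2 listed models. In wild type these levels were 61.7 for CER6, 26.7 for CER3 and 24.4 for CER2, and 1.30 for FAR1, 0.142 for KCS2 and 0.0358 for AT1G02205.2. In WRKY75 RNAi they were 149.7 for CER6, 85.2 for CER3 and 66.2 for CER2, and 13.8 for FAR1, 3.49 for KCS2 and 0.564 for AT1G02205.2. The counting intervals of neighbours among the 5 ordered genes did not overlap in either library. With the deposited lengths, CER2 stood above CER3 in wild type, and in WRKY75 RNAi the intervals of these 2 genes overlapped.

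**Figure D1:**
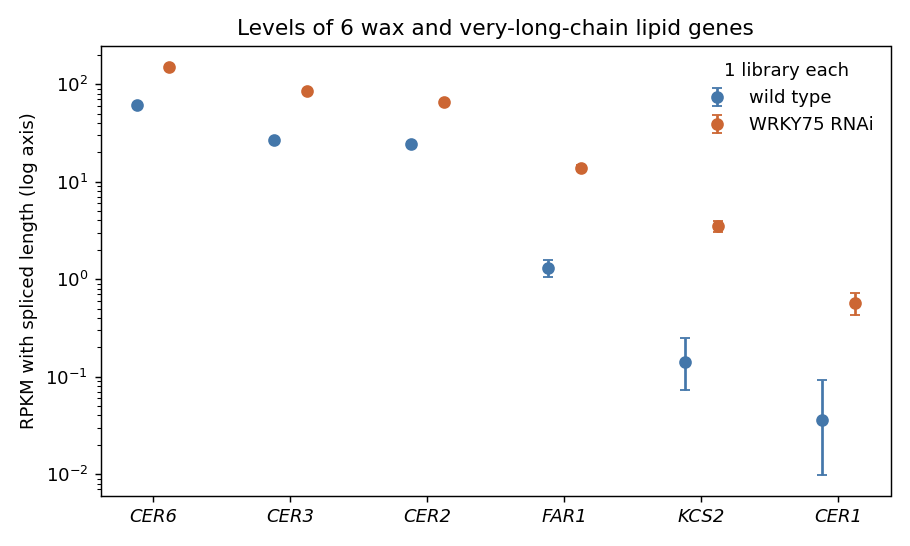
Level in RPKM with the spliced length (log axis) of the 6 genes in the wild-type and the WRKY75 RNAi library. Points are single libraries and bars are exact Poisson 95% intervals, which are smaller than the points for CER6, CER3 and CER2; each gene is higher in WRKY75 RNAi, from 61.7 to 149.7 for CER6 and from 0.142 to 3.49 for KCS2. CER1 is drawn for its model AT1G02205.2 alone, CER6 for AT1G68530.1 and FAR1 for AT5G22500.1.

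The ratio was larger where the wild-type level was lower. Over the 18 wax pathway loci listed as higher with reads in both libraries, Spearman's rho between wild-type RPKM and log2 ratio was -0.78, and over all 1150 such loci in the higher table it was -0.44. Wild-type RPKM enters both measures, the values share their libraries, and the loci were selected for their ratio, so rho describes the table and has no test. With the level in WRKY75 RNAi in place of that in wild type, rho was -0.60 and -0.23.

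**Figure D2:**
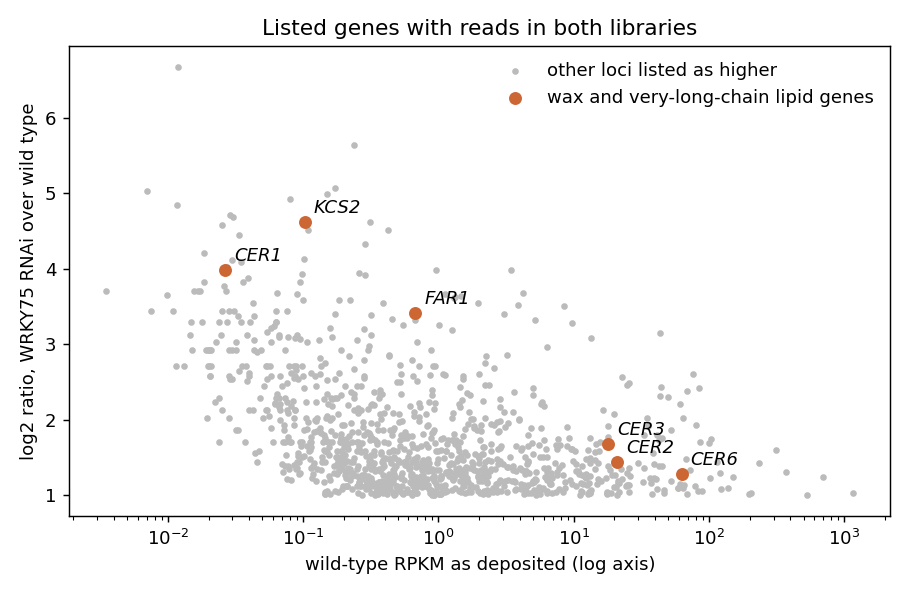
Log2 ratio of WRKY75 RNAi over wild type against deposited wild-type RPKM (log axis) for 1150 loci listed as higher with reads in both libraries, 1 library per genotype. CER6, CER3 and CER2 lie to the right with log2 ratios of 1.28 to 1.68, and KCS2, FAR1 and the CER1 model AT1G02205.2 further left with 3.41 to 4.62.

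The 2 listed models of CER1 and of CER6 allow the reads of a locus to be split. AT1G02205.1 held 71.4% of the reads of both listed CER1 models in wild type (10 of 14 reads, Clopper-Pearson interval 41.9 to 91.6%) and 37.6% in WRKY75 RNAi (35 of 93, interval 27.8 to 48.3%). These intervals overlap, which does not show that the shares are equal, and no test of genotype is possible with 1 library each. AT1G68530.1 held 54.7% of the CER6 reads in wild type (interval 53.7 to 55.6%) and 54.9% in WRKY75 RNAi (interval 54.3 to 55.5%). No source used here says how reads that match several models were counted, so a read may enter both models.

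**Figure D3:**
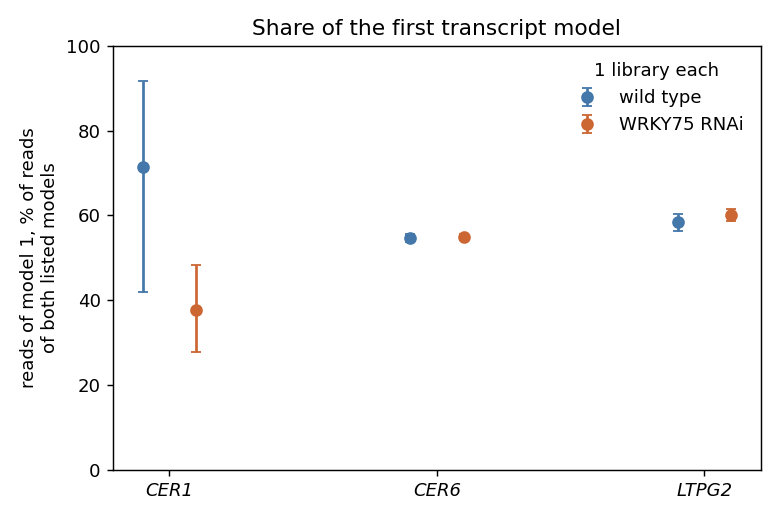
Reads of the first transcript model as a percentage of the reads of both listed models, for CER1, CER6 and the lipid transfer gene LTPG2, in 1 library per genotype. Bars are exact binomial 95% intervals; the CER6 shares are 54.7 and 54.9%, and the CER1 shares of 71.4 and 37.6% have wide intervals because they rest on 14 and 93 reads.

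The promoters of 3 genes are shown as examples: CER6, with the highest RPKM and the smallest ratio, KCS2, with the largest ratio, and FAR1, with the best counted of the large ratios. Each sequence is the 250 bases before the annotated gene start in RefSeq's TAIR10.1, read 5′ to 3′ on the gene's strand. Capitals mark, on either strand, TTGAC (the core of the W-box that WRKY proteins bind), TAACTA (reported for the wax regulator MYB96) and ACGTG (the core of the abscisic acid response element).
CER6, chr1:25715025-25715274, minus strand: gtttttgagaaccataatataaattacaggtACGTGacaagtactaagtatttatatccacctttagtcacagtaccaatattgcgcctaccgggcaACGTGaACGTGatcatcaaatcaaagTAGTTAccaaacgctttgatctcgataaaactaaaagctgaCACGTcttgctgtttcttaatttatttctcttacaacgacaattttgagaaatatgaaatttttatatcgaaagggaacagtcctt
FAR1, chr5:7470078-7470327, plus strand: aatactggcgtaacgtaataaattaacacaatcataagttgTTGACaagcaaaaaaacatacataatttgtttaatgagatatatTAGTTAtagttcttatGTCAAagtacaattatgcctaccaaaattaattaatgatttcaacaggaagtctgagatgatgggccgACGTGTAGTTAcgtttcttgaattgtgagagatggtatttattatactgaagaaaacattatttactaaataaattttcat
KCS2, chr1:1122787-1123036, minus strand: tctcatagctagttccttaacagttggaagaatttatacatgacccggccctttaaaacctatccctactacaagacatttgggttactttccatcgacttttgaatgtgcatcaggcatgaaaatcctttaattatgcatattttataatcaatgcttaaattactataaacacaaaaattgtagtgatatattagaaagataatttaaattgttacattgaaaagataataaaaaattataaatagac

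In the CER6 window, ACGTG occurred at 4 places and TAACTA at 1, and in the FAR1 window TTGAC and TAACTA each occurred at 2 places and ACGTG at 1. The KCS2 window held none of the 3. Over the 7 named loci, ACGTG was present before 4 (CER1, CER2, CER6 and FAR1), against 22.9% of the 27443 protein-coding genes with such a window. TAACTA was present before 3 (CER2, CER6 and FAR1), against 20.6%. TTGAC was present before 2 (CER3 and FAR1), against 44.9% of all windows. The letters TAACTG (8.12% of all windows), the L1 box TAAATGCA (1.57%) or TAAATGTA (2.999%), the G-box CACGTG (6.49%), which contains ACGTG, and GCCGCC (1.87%) were found before 0 of the 7. The window of CER2 lies partly in the neighbouring gene AT4G24500. A match is a run of letters and not a shown binding site.

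Close relatives could share reads with the members. The longest run of identical bases between a KCS2 transcript and that of a gene elsewhere in the genome was 53 bases, in the coding sequence of KCS20 (AT5G43760), which was not listed. Its sequence is given because a short read inside it cannot be assigned to either gene.
KCS2 and KCS20, shared coding bases: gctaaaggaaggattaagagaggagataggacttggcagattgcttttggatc
Over their aligned coding sequences KCS2 and KCS20 were 84.0% identical. CER6 and KCS5 were 81.3% identical, but their longest identical run was 23 bases. For CER1 the longest run was 34 bases (CER1-LIKE1, AT1G02190), for CER3 29 bases of a simple repeat, for FAR1 28 bases (FAR4) and for CER2 20 bases (CER26). No source used here gives the read length, and reads shared between relatives were not tested. Genes on the opposite strand overlap CER2 (AT4G07275 and AT4G24520), KCS2 (AT1G04210 and AT1G04247) and FAR1 (AT5G22505). None of these 5 overlapping loci was in the tables, and without a stated strand setting the reads of each overlapping pair may be mixed. The overlaps come from RefSeq, and a locus that the authors' annotation lacked could not be listed. Which of them it held is not known here.

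The other genes of the pathway were taken from lists ordered by role. Of 65 loci in 7 lists of wax and very-long-chain lipid genes, the members included, 19 were listed as higher and 0 as lower, while 46 were not listed, which does not mean that they were equal in both libraries. Without the 7 named loci, 13 of 58 were higher and 0 lower, against 4.32% and 3.17% of all tested transcript models. The counts are of loci and the shares of transcript models, and a locus with several models has more chances to be listed. These lists were drawn up with earlier results of these data known, so the counts are a description. The median log2 ratio of the 12 other loci with reads in both libraries was 1.39, close to the 1.49 of all higher loci.

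Among the 21 KCS genes, 5 were listed as higher. Beside CER6 and KCS2 these were KCS5 (AT1G25450), also named CER60 and the closest relative of CER6 in the comparison above, with 364 and 1050 reads (log2 ratio 1.65, interval 1.47 to 1.82), KCS3 (AT1G07720) with 2224 and 5514 reads (1.43, interval 1.36 to 1.501), and KCS16 (AT4G34250) with 104 and 245 reads (1.36, interval 1.02 to 1.70). KCS5 and KCS3 thus had ratios above that of CER6, with intervals that did not overlap its own. Per spliced kilobase KCS3 stood at a level close to that of CER3, 29.2 against 26.7 in wild type and 78.5 against 85.2 in the RNAi library. KCS1 and KCS20 were among the 16 not listed.

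Of 8 loci for the other elongase subunits and the CER2 family, 3 were higher. CER10 (AT3G55360), the enoyl-CoA reductase of the elongase, had 874 and 2418 reads (log2 ratio 1.59, interval 1.48 to 1.70). CER26 (AT4G13840), a relative of CER2, had 1250 and 2535 reads (1.14, interval 1.04 to 1.24). The ratio of CER2 lay above that of CER26 with no overlap of the intervals. The ketoreductase genes KCR1 and KCR2 and the dehydratase gene PAS2 were not listed, so of the core elongase enzymes the condensing and the last reducing step were listed and the steps between were not. In the alkane branch, CER1-LIKE1 and the alkane hydroxylase gene MAH1 were not listed.

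Of 9 loci in the alcohol and ester branch, 4 were higher. FAR8 (AT3G44560), in a cluster with FAR4 and FAR5, had 12 and 72 reads (log2 ratio 2.70, interval 1.81 to 3.72), and FAR6 (AT3G56700) had 14 and 35 (1.44, interval 0.51 to 2.45). WSD1 (AT5G37300), which joins alcohols and fatty acids to wax esters, had 0 wild-type reads and 23 in the RNAi library, 8.33-fold higher when 3 reads are taken as the floor of a library. That value leaves out counting error in the RNAi library, and the lower limit of the exact interval of its log2 ratio was 2.64. FAR3, also named CER4, which makes the primary alcohols of leaf and stem wax, was not listed. The listed genes of this branch were all at 0.671 RPKM or less in wild type.

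Of 7 loci for acyl activation and export, 5 were higher. The wax transporter genes ABCG12 (AT1G51500), also named CER5, and ABCG11 (AT1G17840) had 2756 and 6098 reads (log2 ratio 1.27, interval 1.20 to 1.33) and 3555 and 6751 reads (1.04, interval 0.99 to 1.10). The surface lipid transfer protein gene LTPG1 (AT1G27950) had 3948 and 7948 reads (log2 ratio 1.13, interval 1.07 to 1.18). LTPG2 (AT3G43720) had 1484 and 2929 reads in the model used (1.10, interval 1.01 to 1.19). Its other listed model, AT3G43720.2, had 1058 and 1951 reads (1.002, interval 0.89 to 1.11). LACS2 (AT1G49430), an acyl-CoA synthetase known for cutin, had fewer reads and a larger ratio, at 56 and 472 reads (3.19, interval 2.79 to 3.62). By the model used per locus, ABCG11 lay nearest to the authors' limit, with an interval that reached below 1.001, the smallest absolute log2 ratio in the tables. AT3G43720.2 lay nearer still. The smallest ratio among the members, by the same models, was the 1.28 of CER6.

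**Figure D4:**
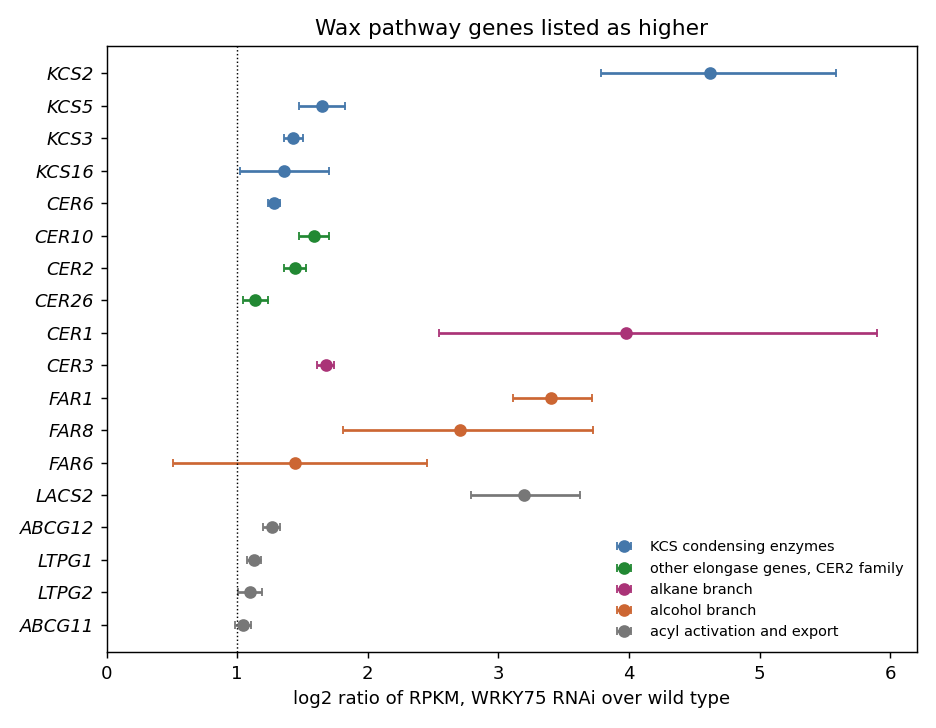
Log2 ratio of RPKM, WRKY75 RNAi over wild type, for the 18 wax pathway loci listed as higher with reads in both libraries, coloured by role, 1 library per genotype. Bars are exact 95% intervals of counting error and the dotted line marks a 2-fold difference; KCS2, CER1, FAR1, LACS2 and FAR8 lie between 2.70 and 4.62, and the other genes between 1.04 and 1.68.

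Of 13 regulators of wax synthesis, among them the activators MYB96, MYB94, MYB30 and SHN1 and the repressor DEWAX, 0 were listed. Of 3 ceramide synthase genes, which use very-long-chain acyl chains for sphingolipids, 0 were listed as well. Lists of these sizes say little, since 4.32% of all tested models were listed as higher and 3.17% as lower. Of 12 genes of suberin synthesis and export, the feruloyl transferase gene ASFT (AT5G41040) was in the higher table with 0 wild-type reads and 16 in the RNAi library, 5.79-fold higher with the same floor, with 2.07 as the lower limit of the exact interval of its log2 ratio. GPAT5, CYP86A1 and the transporter genes ABCG2, ABCG6 and ABCG20 were not listed, so KCS2 and FAR1 were listed without most of the suberin genes.

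Wax is made in the epidermis, and in whole leaves more epidermal cells and more RNA per cell cannot be told apart. Of 5 epidermis markers, HDG1 (AT3G61150) was in the higher table, with 1022 and 1977 reads (log2 ratio 1.07, interval 0.96 to 1.18), and ATML1, PDF2, PDF1 and FDH were not listed. Of 3 trichome markers, GL3 (AT5G41315) was in the higher table too, with 22 reads and 63 reads (1.64, interval 0.92 to 2.41). Of 3 guard cell, 4 mesophyll, 3 flower and 3 endodermis and root markers, 0 were listed, and their levels are not known from these tables. The part of the share of epidermal tissue in the values above was not tested.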

How the data were processed

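Reads were aligned with Bowtie to TAIR10, per the submitters' processing notes. No source used here names the counter or the test, or gives a version or strand setting. The filters are named only in the sheet name of the lower genes, as limits on the log2 ratio and the p-value. Over both deposited tables the smallest absolute log2 ratio was 1.001. The largest of the authors' p-values, whose test is not named, was 0.0102. Per the file headers, the deposited tables (1360 higher and 998 lower transcript models) hold read counts, RPKM values and their log2 ratio. They also hold the authors' p-value and false discovery rate. Beside their largest value, the deposited p-values served only to find how many models were tested (31475, at which ranks were whole to a mean of 0.0002 over 303 rows).

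Library totals were taken from reads, RPKM and length. Per locus the model with most reads over both libraries was used, and 1 row without a gene name was dropped. Ratios were recomputed from RPKM, with intervals from the reads in SciPy 1.17.1, tested on simulated data. Spliced lengths, promoters, overlaps and coding identities (Biopython 1.88) come from RefSeq's TAIR10.1, whose nuclear chromosomes are those of TAIR10. Its gene ends can differ from those behind the deposited lengths, and its genes and models from those the authors counted. The alternatives were pseudocounts of 0.1, 1 and 5 RPKM, unscaled reads, other models per locus, log2 thresholds of 1.5 and 2, and 10 reads in each library. The members and lists were chosen with earlier results of these data known. Values are given by rule for all members, every locus of the lists found in a table and WRKY75. The acyltransferases in the closing section and the unlisted loci named as examples were chosen afterwards.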

Additional observations from a re-analysis of the deposited data

How the results depend on the processing

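None of the settings could turn the sign of a ratio, so the unchanged signs are no support. The other models per locus come from the higher table, where the smallest log2 ratio was 1.001. The library totals are too close for unscaled reads to reverse ratios of this size. For 4 of the 6 genes only 1 model is listed, so a change of model leaves them as they are. A pseudocount, which cannot turn a sign, of 5 RPKM gave log2 ratios of 1.21 for CER6, 1.25 for CER2, 1.44 for CER3, 1.09 for FAR1, 0.56 for KCS2 and 0.11 for CER1. With 1 RPKM they were 2.28 for FAR1, 1.67 for KCS2 and 0.46 for CER1, and with 0.1 RPKM 3.69 for KCS2 and 2.03 for CER1; a pseudocount lowers the ratio of genes with low RPKM by construction. Without scaling to library totals the ratios were 1.16 for CER6, 1.32 for CER2 and 1.56 for CER3. The CER1 model with the lowest number gave 1.93. Of the 6 members listed as higher, 3 had a log2 ratio of at least 2. Of the 19 wax pathway loci listed as higher, 9 reached a log2 ratio of 1.5 and 6 reached 2. With at least 10 reads asked for in each library, 5 members and 17 pathway loci were left. With a pseudocount of 1 RPKM, 5 members and 14 pathway loci had a log2 ratio of at least 1. Depth limits KCS2, with 12 wild-type reads, and the 2 listed models of CER1, with 14 together. No paired analysis was possible because each genotype has 1 library.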

Other observations

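CER2 belongs to a plant family of acyltransferases annotated as HXXXD-type. Of 58 protein-coding genes with this annotation in TAIR10.1, 9 were listed as higher and 2 as lower, where 4.32% and 3.17% of all tested transcript models were. The counts are of genes and the shares of transcript models. The word search was chosen after the data were seen, and the count has no test. Beside CER2, CER26 and ASFT, the higher genes were DCF (AT3G48720), named for a feruloyl transferase of cutin, with 768 and 1513 reads (log2 ratio 1.10, interval 0.97 to 1.22), EPS1 (AT5G67160; 1.62), AT5G67150 (1.33), AT2G40230 (1.06), AT5G38130 (28 and 94 reads; 1.87) and AT5G02890 (10 and 97 reads; 3.40, interval 2.46 to 4.50). The lower genes were AT5G42830, with 2493 and 685 reads (log2 ratio -1.74), and AT4G15390, with 8 wild-type reads and 0 in the RNAi library.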
